A study of Mus musculus with 6 samples.

Results

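Aminoacyl-tRNA synthetases and their complex partners were followed through RNA-seq of basal cells from mouse esophageal epithelium. The set was a named list of 38 genes among the 24016 with a usable symbol, and all 38 had a row. It comprised 20 cytosolic synthetases, 16 mitochondrial synthetases and the 2 partner proteins Aimp1 and Aimp2. The list was chosen by the FPKM of Qars, which stood higher in all 3 Krt15-positive libraries than in any Krt15-negative one, so every comparison of the sorted groups over these genes is a description, and none is given as a test. Krt15-positive cells were CD29high GFP+ (3 libraries) and Krt15-negative cells were CD29high GFP- (3 libraries). Mice of the Krt15-CrePR1;R26mTomato/mGFP genotype gave the cells of both groups, and every mouse had 1 mg of RU486, which switches on the Cre recombinase, 24 h before the sort. CD29 is integrin beta-1, a surface marker of basal cells, and GFP appears once Cre, driven by the Krt15 promoter, has recombined the reporter, so a cell without recombination stays GFP-negative even if it expresses Krt15. The labels give neither age, sex nor the number of animals behind a library. Values are FPKM, fragments per kilobase of transcript per M mapped fragments (M, mega), so that levels of different genes can be set side by side per length.

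Aminoacyl-tRNA synthetases attach each amino acid to its own tRNA, the step that fixes the genetic code before the ribosome reads it. A cytosolic set serves cytosolic translation, and a separate nuclear-encoded set, mostly with the suffix 2, serves mitochondrial translation, while Gars and Kars supply both compartments. In animals several cytosolic enzymes sit together in a multi-synthetase complex held by the scaffold proteins Aimp1 and Aimp2. Qars, glutaminyl-tRNA synthetase, is a subunit of that complex. Mitochondria have no glutaminyl-tRNA synthetase of their own, and glutamine is made there on the tRNA by Ears2 and an amidotransferase of 3 subunits.

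All 6 libraries carried the keratins of basal esophageal cells, with Krt5 at 376 to 1293 FPKM in Krt15-positive and 369 to 1029 FPKM in Krt15-negative libraries. Markers of suprabasal cells summed to 8789 to 51323 FPKM in Krt15-positive and 7482 to 36689 FPKM in Krt15-negative libraries. That was above the sum of the basal markers in every library, which was 3898 to 14138 FPKM in Krt15-positive and 3960 to 11138 FPKM in Krt15-negative ones. Among the suprabasal markers the keratin Krt4 was at 606 to 6295 FPKM in Krt15-positive and 1108 to 4635 FPKM in Krt15-negative libraries, and Krtdap at 7254 to 41287 FPKM in Krt15-positive and 0 to 33634 FPKM in Krt15-negative ones. Krtdap made up most of the suprabasal sum in every library but Krt15-negative replicate 3, where it was listed at 0. In Krt15-positive replicate 1 it gave 7254 of 8789 FPKM, against a basal sum of 5727 FPKM. In Krt15-negative replicate 3 the suprabasal and basal sums were 7482 and 5298 FPKM. Krtdap gave 13640 of 23652 FPKM in Krt15-positive replicate 2, against a basal sum of 14138 FPKM. It gave 33634 of 36689 FPKM in Krt15-negative replicate 1 and 22532 of 30960 FPKM in Krt15-negative replicate 2, against 3960 and 11138 FPKM. In Krt15-positive replicates 1 and 2 and Krt15-negative replicates 1 and 2 the order of the sums thus rests on this 1 gene. In both libraries of replicate 3 it does not. The Krt15-negative replicate 1 library stood apart. Of the 9423 genes tested (mean of at least 1 FPKM), 12.0% to 28.4% lay below 1 FPKM in the Krt15-positive libraries, against 66.2% in that library and 29.5% and 21.6% in the other Krt15-negative ones. Depth, estimated from the smallest steps in the values, was 27.6 to 34.1 M fragments in Krt15-positive libraries, against 29 M in Krt15-negative replicate 1 and 41.6 and 39.6 M in the other Krt15-negative ones. Since separate animals are not stated for the 3 libraries of a group, p-values here measure only the spread between libraries, which may be technical. Fewer cells of a type and less RNA per cell cannot be told apart in such bulk libraries. Fibroblast markers summed to 164 to 321 FPKM in Krt15-positive and 722 to 1232 FPKM in Krt15-negative libraries. Of the 13 tested, 9 were lower in Krt15-positive libraries without overlap, against 2.44% of all genes tested. Col1a2 and Lum were listed at 0 in every Krt15-positive library. The most abundant of the list, Dcn, overlapped between the groups. Its values were 167, 176 and 71.1 FPKM in Krt15-positive and 13.9, 267 and 457 FPKM in Krt15-negative libraries. Immune markers summed to 146 to 7322 FPKM in Krt15-positive libraries, the highest sum being mostly Lyz2, and to 606 to 1099 FPKM in Krt15-negative ones. Of the 11 tested, 9 had a lower mean log2(FPKM + 1) in Krt15-positive libraries, and 2 a higher one, against 68.6% of all genes tested. Without overlap, 2 were lower, Tyrobp among them, at 0, 20.2 and 27.6 FPKM in Krt15-positive and 203, 124 and 31 FPKM in Krt15-negative libraries. Without Krt15-negative replicate 1, 1 of 12 was higher, against 51.3% of all genes. The part of these markers in the synthetase values was not tested.

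Most synthetase genes were low in that library too. The Krt15-positive libraries had 6, 3 and 9 of the 38 members below 1 FPKM, and the Krt15-negative libraries 25, 7 and 5. The 25 in Krt15-negative replicate 1 made up 65.8% of the members, close to the share of all genes tested there. Cytosolic and Aimp members were mostly above that level elsewhere: 1, 0 and 0 of 22 lay below 1 FPKM in the Krt15-positive libraries, and 13, 1 and 0 in the Krt15-negative ones. In every library some mitochondrial members lay below it, with 5, 3 and 9 of 16 below 1 FPKM in Krt15-positive libraries and 12, 6 and 5 in Krt15-negative ones. A value of exactly 0 may stand for an estimate that failed, so such genes are called listed at 0 and given per library.

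**Figure D1:**
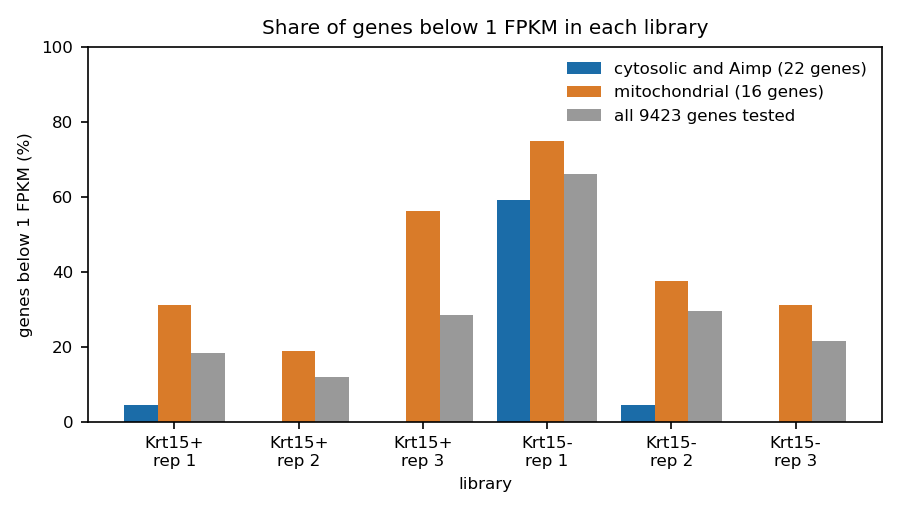
Bars give the percentage of genes below 1 FPKM (y axis, %) in each library (x axis, Krt15+ left and Krt15- right), for cytosolic and Aimp members, mitochondrial members and all genes tested. For cytosolic and Aimp members, mitochondrial members and all genes tested the Krt15-positive libraries reach at most 4.5%, 56.2% and 28.4%, and the Krt15-negative replicate 1 library stands at 59.1%, 75% and 66.2%.

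Cytosolic members were the more abundant set in every library. The median over the 22 cytosolic and Aimp members was 12.4, 35.6 and 27.7 FPKM in the Krt15-positive libraries and 0.131, 19.8 and 16.8 FPKM in the Krt15-negative ones. The median over the 16 mitochondrial members was 2.25, 9.22 and 0.575 FPKM in the Krt15-positive libraries and 0, 4.16 and 5.08 FPKM in the Krt15-negative ones. By mean FPKM the first 7 places belonged to Aimp2, Aimp1, Dars, Nars, Hars, Tars and Rars, and the last 6 to mitochondrial members.

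**Figure D2:**
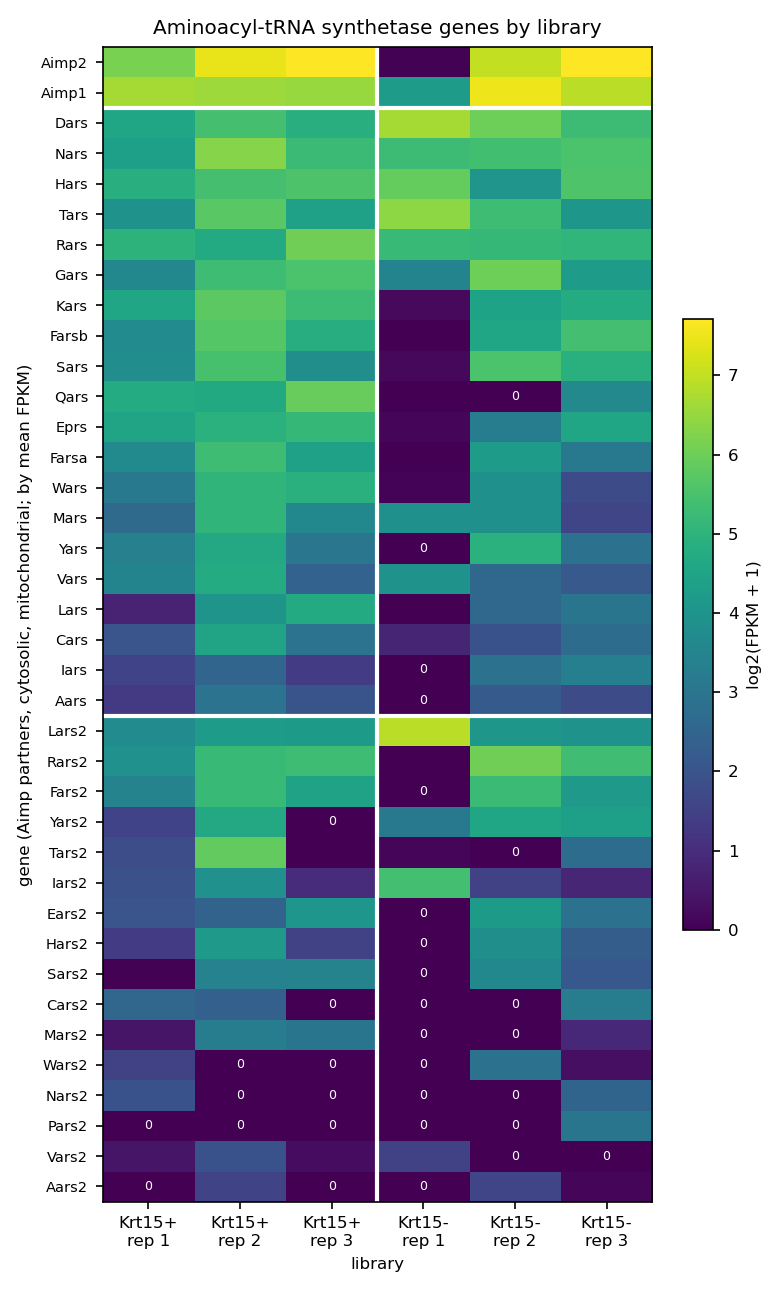
Colour gives log2(FPKM + 1) of each of the 38 genes (rows, in blocks of Aimp partners, cytosolic and mitochondrial synthetases, by mean FPKM within a block) in each library (columns, Krt15+ left and Krt15- right), and 0 marks a gene listed at 0. The dark column of the Krt15-negative replicate 1 library is broken by Dars, Tars, Hars, Lars2 and Iars2 among others, and Qars is also at 0 in Krt15-negative replicate 2.

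The scaffold genes of the complex stood highest. Aimp2 was at 70.7, 175 and 208 FPKM in Krt15-positive libraries and at 0.0354, 127 and 209 FPKM in Krt15-negative ones. Aimp1 was at 101, 94.3 and 91.7 FPKM in Krt15-positive libraries and at 17.9, 183 and 120 FPKM in Krt15-negative ones. The groups overlapped for both, and the low Aimp2 value belonged to the library that stood apart. Without that library the differences in log2(FPKM + 1), Krt15-positive minus Krt15-negative, were -0.25 for Aimp2 and -0.63 for Aimp1, against 2.19 (SE 1.66) and 0.36 (SE 0.93) with it.

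The enzymes of the complex did not keep a fixed proportion from library to library. Dars, aspartyl-tRNA synthetase, was at 22.5, 42.6 and 28.2 FPKM in Krt15-positive libraries and at 101, 63 and 37.7 FPKM in Krt15-negative ones, a difference of -1.02 (SE 0.88). Rars, arginyl-tRNA synthetase, was at 25.2 FPKM or more in every library, with 30.6, 25.2 and 65 FPKM in Krt15-positive libraries and 36.4, 34.3 and 33.1 FPKM in Krt15-negative ones (difference 0.09, SE 0.90, and -0.30 without Krt15-positive replicate 3). Kars, lysyl-tRNA synthetase, had 22, 53.6 and 38.4 FPKM in Krt15-positive libraries, against 0.138, 21.4 and 25.7 FPKM in Krt15-negative ones. Within the Krt15-negative replicate 1 library Dars and Rars were abundant while Kars, Eprs, Lars, Iars and Qars lay below 0.2 FPKM. Eprs, which charges both glutamate and proline, had 21.9, 29.3 and 34.3 FPKM in Krt15-positive libraries, against 0.0771, 8.44 and 22.1 FPKM in Krt15-negative ones. Its lowest Krt15-positive value lay just under its highest Krt15-negative value, which makes it the member nearest to complete separation after Qars (difference 2.24, SE 1.28, and 0.98 without Krt15-negative replicate 1). Mars, Lars and Iars, the methionyl, leucyl and isoleucyl enzymes, reached at most 32.1, 25.4 and 9.02 FPKM, with differences of 0.65, 1.28 and -0.26, and their groups overlapped. Leaving out 1 library in turn gave -0.10 to 1.21 for Mars, 0.35 to 2.49 for Lars and -1.30 to 0.36 for Iars. The lowest value came without Krt15-negative replicate 3 for Mars and without Krt15-negative replicate 1 for Lars and Iars.

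**Figure D3:**
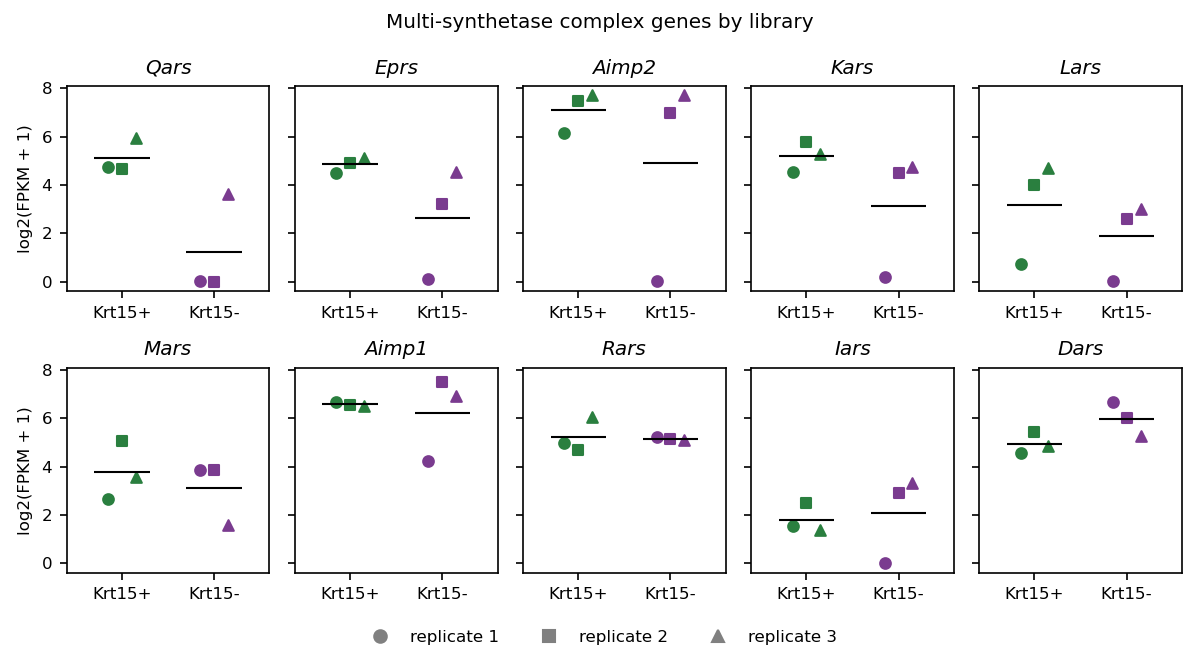
Points give log2(FPKM + 1) (y axis) of the 10 genes of the multi-synthetase complex in each library, Krt15+ left and Krt15- right in each panel, with the symbol showing the replicate and the line the mean of 3 libraries. The Krt15-negative replicate 1 point lies near 0 for Qars, Eprs, Aimp2, Kars, Lars and Iars but is the highest of the 6 for Dars, and Qars is the only panel in which the groups do not overlap.

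Qars was the gene whose values chose the list. It was at 25.7, 24.6 and 60.1 FPKM in the Krt15-positive libraries, against 0.0163, 0 and 11.5 FPKM in the Krt15-negative ones. At the estimated depths, and taking its longest annotated transcript of 3066 bases, these values stand for about 2172, 2567 and 5524 fragments in Krt15-positive libraries and about 1.5, 0 and 1395 fragments in Krt15-negative ones. All Krt15-positive values lay above all Krt15-negative ones, and Krt15-negative replicate 3 stood far from the other libraries of its group. The difference was 3.89 in log2(FPKM + 1) (SE 1.29), 3.29 without Krt15-negative replicate 1 and 3.28 without Krt15-negative replicate 2. In the latter library the gene was listed at 0, which may stand for an estimate that failed. Over the 19 other settings in which member differences were recomputed, the difference lay between 2.16 and 6.04, the lowest with library weights. Of the basal keratins, Krt14 was at 949 to 2905 FPKM in Krt15-positive and 1061 to 3199 FPKM in Krt15-negative libraries.

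Of the 36 members tested, 1 had all Krt15-positive values above all Krt15-negative ones, Qars itself, and 0 had them all below. Over all genes tested, 8.85% were higher and 2.44% lower without overlap. With limma across the 9423 genes, 0 genes (0%) passed an adjusted p below 0.05, the smallest being 0.40, and so no member did. Without adjustment, 370 genes (3.93%) passed limma at the 0.05 level, of which 300 were higher and 70 lower. Of the 35 members tested besides Qars, 0 were among them, and no test is given for Qars, whose values chose the list. The labels give same-numbered libraries of both groups a common ID and do not say what it marks. Within the 3 sets of same-numbered libraries, 9 of the 36 members were higher in Krt15-positive cells each time (Aars, Cars, Eprs, Farsa, Kars, Lars, Mars2, Qars and Wars), against 20.9% of all genes tested, and Dars was lower each time, against 6.34%. Because Qars chose the list, nothing is read from these counts. The 2 members not tested were Aars2 and Vars2, the mitochondrial alanyl and valyl enzymes, which reached at most 2.04 and 2.83 FPKM.

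Across the other members the differences were of both signs and lay within wide errors. Of the 35 tested besides Qars, 25 had a difference above 0 (71.4%), against 68.6% of all genes tested. Without Krt15-negative replicate 1 the count was 17 of 35 (48.6%), against 51.3% of all genes. The median difference was 0.77 over the 21 cytosolic and Aimp members besides Qars (0.80 with it) and 0.35 over the 14 mitochondrial members tested, against 0.63 over all genes. Without that library these medians were 0.11 (0.12 with Qars), -0.58 and 0.03. Leaving out 1 library in turn changed the sign of 21 of the 36 differences for at least 1 library, and for 14 of them Krt15-negative replicate 1 was such a library.

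**Figure D4:**
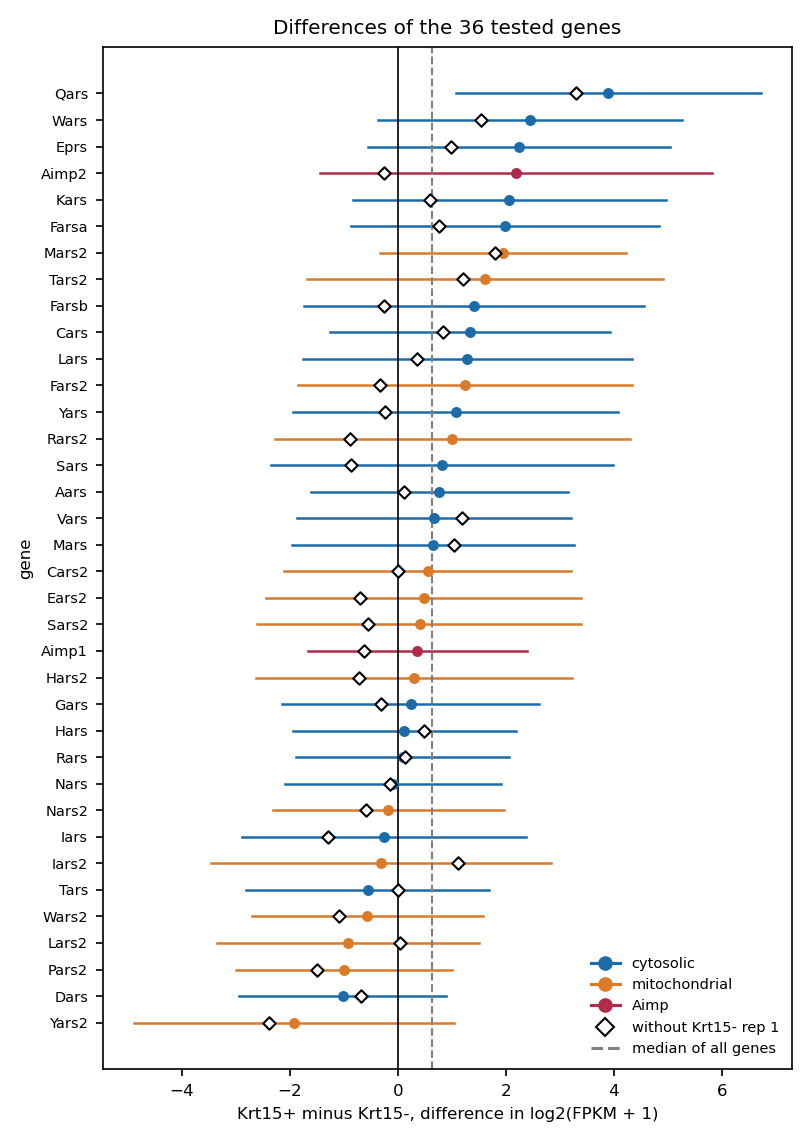
Filled points give the difference in log2(FPKM + 1), Krt15+ minus Krt15- (x axis), of the 36 tested genes (y axis), with 95% confidence intervals from limma, open diamonds the difference without Krt15-negative replicate 1, and the dashed line the median of all genes (0.63). Qars has the highest value (3.89), Yars2 the lowest (-1.93), and Aimp2 stands at 2.19 with all libraries and at -0.25 without that one.

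Synthetases fall into 2 structural classes with unrelated catalytic folds, and class I holds Qars, Cars, Eprs (by its glutamyl part), Iars, Lars, Mars, Rars, Vars, Wars and Yars. Of the 9 class I genes besides Qars, 8 had a difference above 0, with a median of 1.07, against 68.6% and 0.63 over all genes tested. Without Krt15-negative replicate 1 the count was 7 with a median of 0.83, against 51.3% and 0.03 over all genes. Of the 10 cytosolic class II genes, 7 had a difference above 0, with a median of 0.51, and without that library 5 did, with a median of -0.07. Wars, tryptophanyl-tRNA synthetase, had the second highest difference after Qars among class I, at 7.76, 32.4 and 28.8 FPKM in Krt15-positive libraries against 0.058, 13.5 and 2.47 FPKM in Krt15-negative ones (difference 2.45, SE 1.28). Its groups overlapped, since Krt15-positive replicate 1 lay below Krt15-negative replicate 2.

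Nars, Hars and Tars had the highest mean FPKM of the class II enzymes outside the complex. Nars, asparaginyl-tRNA synthetase, was at 19.4, 78.8 and 37 FPKM in Krt15-positive libraries and at 38.2, 40.2 and 45.3 FPKM in Krt15-negative ones (difference -0.09, SE 0.91, and 0.39 without Krt15-positive replicate 1). Hars, the histidyl enzyme, was at 27.9, 42.1 and 46.1 FPKM in Krt15-positive libraries and at 58.6, 15.1 and 47 FPKM in Krt15-negative ones (difference 0.12, SE 0.94, and -0.46 without Krt15-negative replicate 2). Tars, the threonyl enzyme, was at 14.5, 52.8 and 20.4 FPKM in Krt15-positive libraries and at 83.9, 38.8 and 15.9 FPKM in Krt15-negative ones (difference -0.56, SE 1.03, and 0.01 without Krt15-negative replicate 1). All 3 were abundant in the Krt15-negative replicate 1 library. Farsa and Farsb encode the 2 different subunits of one enzyme, phenylalanyl-tRNA synthetase, and are set side by side here after their values were seen. Farsa was at 11.6, 38.9 and 20.2 FPKM in Krt15-positive libraries and at 0.0195, 18.3 and 7.71 FPKM in Krt15-negative ones. Farsb was at 12.1, 50.6 and 27.1 FPKM in Krt15-positive libraries and at 0.0169, 22.7 and 41.3 FPKM in Krt15-negative ones. Both subunits were near 0 in the same library, and Farsb lay above Farsa in the other 5 libraries. The difference of Farsa was 1.98, and 0.76 without that library. The difference of Farsb was 1.41, and -0.25 without it. Sars, the seryl enzyme, had a difference of 0.82, and of -0.86 without it.

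Among mitochondrial enzymes, Lars2, Rars2, Fars2 and Yars2 had the highest means. Lars2, the leucyl enzyme, was at 12.3, 17.9 and 17.3 FPKM in Krt15-positive libraries and at 119, 15.9 and 14.5 FPKM in Krt15-negative ones. A single library thus set its difference of -0.92 (SE 1.11), which was 0.04 without it. Rars2, the arginyl enzyme, was at 14.1, 36.1 and 39 FPKM in Krt15-positive libraries and at 0.0191, 65.5 and 39.4 FPKM in Krt15-negative ones (difference 1.01, SE 1.50, and -0.88 without Krt15-negative replicate 1). Fars2, the phenylalanyl enzyme, was at 10, 36.4 and 20.6 FPKM in Krt15-positive libraries and at 0, 37.6 and 16.6 FPKM in Krt15-negative ones (difference 1.24, SE 1.42, and -0.33 without that library). For both genes the value near 0 came from the library that stood apart.

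Yars2, the tyrosyl enzyme of mitochondria, had the lowest difference of all members. It was at 1.95, 24.4 and 0 FPKM in Krt15-positive libraries, against 7.71, 22.5 and 19.4 FPKM in Krt15-negative ones (difference -1.93, SE 1.35, and -2.38 without Krt15-negative replicate 1). The groups overlapped through Krt15-positive replicate 2, without which the difference was -3.23. It was -0.90 without Krt15-positive replicate 3, where the gene was listed at 0, and -0.73 without both libraries of replicate 3. Mars2, the methionyl enzyme, was at 0.351, 8.63 and 7.03 FPKM in Krt15-positive libraries, against 0, 0 and 0.829 FPKM in Krt15-negative ones (difference 1.95, SE 1.05). Pars2, the prolyl enzyme, was listed at 0 in all Krt15-positive libraries and in Krt15-negative replicates 1 and 2, and was at 6.97 FPKM in Krt15-negative replicate 3. The remaining mitochondrial members tested, Cars2, Ears2, Hars2, Iars2, Nars2, Sars2, Tars2 and Wars2, had differences between -0.57 and 1.62. Tars2, the threonyl enzyme, showed the uneven detection of this set, at 2.54, 57.2 and 0.0148 FPKM in Krt15-positive libraries and at 0.093, 0 and 5.58 FPKM in Krt15-negative ones. Its difference of 1.62 was -0.03 without Krt15-positive replicate 2.

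The promoters were read for a regulatory element known from this family. ATF4, the transcription factor of the amino acid and stress response, binds elements with the letters TGATGNAA, and in mammals several cytosolic synthetase genes are among its targets. RefSeq promoter windows of GRCm38.p6, from 250 bases before to 50 after a start, were at hand for 29 of the 38 members (not for Cars, Hars, Hars2, Lars, Nars, Pars2, Rars, Vars and Wars). TGATGNAA occurred on either strand in 5 of the 29, all cytosolic, and in 3.97% of 32851 windows of all genes. Of those, 4 had the exact letters TGATGCAA, which 0.895% of all windows held. Stretches of 30 bases from 4 of the 5 genes are shown because they hold the element, in capitals, as TGATGNAA or its reverse complement.
Gars (chr6:55037960-55037989, plus strand): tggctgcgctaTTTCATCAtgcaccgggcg
Iars (chr13:49682126-49682155, plus strand): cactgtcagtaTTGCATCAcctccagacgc
Tars (chr15:11399655-11399684, minus strand): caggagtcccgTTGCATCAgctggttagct
Yars (chr4:129189895-129189924, plus strand): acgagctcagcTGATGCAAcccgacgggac

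The 5 genes with the element had differences of 0.77 (Aars), 0.24 (Gars), -0.26 (Iars), -0.56 (Tars) and 1.07 (Yars), so they lay on both sides of 0 and of the median of all genes. Without Krt15-negative replicate 1 they were 0.11 (Aars), -0.31 (Gars), -1.30 (Iars), 0.01 (Tars) and -0.24 (Yars). Their levels also differed widely between genes, from at most 6.70 FPKM for Aars to at most 83.9 FPKM for Tars. CACGTG, the letters of the E-box that MYC proteins bind, occurred in 5 of the 29 members (Aars, Ears2, Farsb, Iars and Tars) and in 7.15% of all windows. GGAANTGA, also searched, occurred in 1 of the 29, Ears2, and in 8.13% of all windows. Qars, with the highest difference, had neither TGATGNAA nor CACGTG in its window. It held GGGCGG once, as 35.7% of all windows did, and CCAAT at 2 places, as 37.4% did. The 250 bases before its start, shown as the promoter of the gene that chose the list, carry the GGGCGG match and the first CCAAT match, both as reverse complements, in capitals, and the other CCAAT match lies after the start.
Qars (chr9:108507755-108508004, plus strand): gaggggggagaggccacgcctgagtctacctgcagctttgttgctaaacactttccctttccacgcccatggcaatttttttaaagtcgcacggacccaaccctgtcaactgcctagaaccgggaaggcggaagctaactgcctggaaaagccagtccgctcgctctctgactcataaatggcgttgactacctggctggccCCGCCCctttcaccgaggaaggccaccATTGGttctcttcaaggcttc

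Of 12 other genes of tRNA charging, among them the amidotransferase subunits and the complex partner Eef1e1, 0 passed the test in either direction. A difference above 0 was found for 9 of them, against 68.6% of all genes tested. Without Krt15-negative replicate 1 it was found for 5, against 51.3% of all genes. Eef1e1, the third scaffold protein of the complex, was at 20.3, 42.3 and 98.1 FPKM in Krt15-positive libraries and at 7, 58.8 and 95.3 FPKM in Krt15-negative ones (difference 0.33, SE 1.14, and -0.75 without Krt15-negative replicate 1). The amidotransferase that makes glutaminyl-tRNA in mitochondria has the subunits Pet112, Gatc and Qrsl1. Pet112 (now Gatb) was at 4.41, 8.58 and 3.34 FPKM in Krt15-positive libraries, against 57.2, 13.7 and 15.1 FPKM in Krt15-negative ones, without overlap, as for 2.44% of all genes tested (difference -1.98, SE 1.11). Gatc was at 24.1, 10.2 and 15 FPKM in Krt15-positive libraries, against 0, 0 and 16.4 FPKM in Krt15-negative ones (difference 2.67, SE 1.35). Qrsl1 was at 9.29, 9.85 and 0 FPKM in Krt15-positive libraries and at 0, 2.27 and 0 FPKM in Krt15-negative ones. Ears2, which starts that route, was at 3.11, 4.50 and 15.6 FPKM in Krt15-positive libraries and at 0, 17.3 and 6.58 FPKM in Krt15-negative ones (difference 0.48, SE 1.33, and -0.71 without Krt15-negative replicate 1).

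Pathways that sense or use amino acids were set beside the synthetases. Of 24 genes of the integrated stress response, which ATF4 serves, 13 were tested and 0 passed. All 13 had a difference above 0 (median 0.84), against 68.6% of all genes tested (median 0.63). Without Krt15-negative replicate 1 the count was 10 of 14 (median 0.34), against 51.3% of all genes (median 0.03). Atf4 itself was at 102, 48.6 and 105 FPKM in Krt15-positive libraries and at 135, 52.4 and 41.2 FPKM in Krt15-negative ones (difference 0.27, SE 0.83, and -0.06 without Krt15-negative replicate 3). Psat1, an enzyme of serine synthesis, was at 42.3, 112 and 61 FPKM in Krt15-positive libraries and at 0.0162, 35.6 and 73.1 FPKM in Krt15-negative ones, so that its difference of 2.26 (SE 1.46) was 0.37 without the library that stood apart. Chac1 was listed at 0 in all 6 libraries.

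Of 18 genes of glutamine metabolism and transport, 14 were tested and 0 passed. A difference above 0 was found for 12 (median 1.06), against 68.6% of all genes tested (median 0.63). Without Krt15-negative replicate 1 the count was 8 of 16 (median 0.03), against 51.3% of all genes (median 0.03). The list was drawn up with the Qars values known. Ppat, the first enzyme of purine synthesis, was at 4.01, 6.26 and 8.09 FPKM in Krt15-positive libraries, against 0.00853, 0.0645 and 2.62 FPKM in Krt15-negative ones. Gpt2, a mitochondrial alanine transaminase, was at 4.13, 13.3 and 3.80 FPKM in Krt15-positive libraries, against 0, 0.183 and 0.305 FPKM in Krt15-negative ones (difference 2.61, SE 0.99, and 2.51 without Krt15-negative replicate 1). Slc38a2, a glutamine transporter and the most abundant gene of the list, was at 49, 59.5 and 56.8 FPKM in Krt15-positive libraries and at 5.93, 49.3 and 20.4 FPKM in Krt15-negative ones, and its groups overlapped.

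The genes most like Qars over the 6 libraries were Mavs, Btbd10, Rnf31, P4ha1 and Traf3ip2, with Pearson correlations of log2(FPKM + 1) between 0.994 and 0.999 (n = 6 libraries, the highest 5 of 9422 genes). Mavs, the mitochondrial antiviral signalling adaptor, was at 5.90, 6.32 and 10.6 FPKM in Krt15-positive libraries, against 0.0129, 0.0266 and 3.15 FPKM in Krt15-negative ones. These points share libraries and depth, and all 5 genes lay below 0.1 FPKM in Krt15-negative replicates 1 and 2. Among members, Eprs (0.84) and Mars2 (0.75) had the highest such correlation with Qars, and Dars (-0.88) the lowest.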

How the data were processed

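RNA-seq values of 6 libraries were used, 3 Krt15-positive and 3 Krt15-negative. The SMART-Seq v4 kit named in the labels' protocols does not mark strand. The deposited table gives FPKM as the authors estimated them, though its title calls them counts; the values are not whole. STAR 2.5, Cufflinks 2.2.1, DESeq2 and mm9 are named, without roles, in the submitters' processing notes. Annotation and read filters are not stated there. Of 24043 rows, 27 whose symbols a spreadsheet had turned into dates were left out.

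Values were analysed as log2(FPKM + 1), a scale that understates changes of low genes. The 9423 genes averaging 1 FPKM or more were fitted in R 4.3.3 by limma 3.58.1 (mean-variance trend, group as the only term, Benjamini-Hochberg adjustment over all of them). Depth was estimated from the single-fragment step of FPKM times length in 2172 genes with 1 annotated transcript (GENCODE M21), and is approximate, so no counting intervals are given. Cufflinks shares reads between isoforms and similar genes. In GENCODE M21, 10 members overlap exons of an opposite-strand gene, Aimp2 with Eif2ak1, Hars with Hars2, Mars with Ddit3 and Iars2 with Rab3gap2 among them, and Aars overlaps Exosc6 on its own strand, so reads there cannot be assigned with certainty.

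Members and lists were chosen with earlier results of these data known. Per-library values are given for Qars, the 6 most abundant cytosolic or Aimp members, the 4 most abundant mitochondrial members, members whose groups do not overlap, and the 3 of highest and 3 of lowest moderated statistic; Rars, Kars, Eprs, Farsa, Farsb, Tars2 and Ears2 were added after their values were seen. Of each other list the 3 most abundant genes and the 2 of largest statistic were eligible, and Qrsl1, Atf4 and Chac1 were added after their values were seen. Values of 1 gene and 1 promoter stretch are not reported here. RefSeq promoter windows (GRCm38.p6, not the mm9 of the values) were searched on both strands for 5 motifs, none containing another, and for 1 exact form of the ATF4 element, chosen after the FPKM values were seen. Alternatives were pseudocounts of 0.1 and 5, other filters, upper-quartile, median-of-ratios and quantile scaling, library weights, a replicate block and leaving out libraries. Upper-quartile and median-of-ratios scaling were first computed from values above 0 and from genes above 0 in all libraries. After those results were seen, they were redefined over all genes tested and over genes of at least 1 FPKM in all libraries; the first definitions are kept as added alternatives.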

Additional observations from a re-analysis of the deposited data

How the results depend on the processing

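Of 673 recomputed differences of single members, 667 moved by less than the SD between replicates. That SD includes the Krt15-negative replicate 1 library, so even the change of Aimp2 from 2.19 to -0.25 without that library counted as smaller. The replicate block and the filter at 1 FPKM or more in at least 3 libraries cannot move a single difference. The count is therefore no measure of stability. Still, 24 of the 36 members tested changed sign in at least 1 setting, while 12 kept 1 sign in all of theirs: Aars, Eprs, Farsa, Kars, Lars, Mars2, Qars and Wars above 0 and Dars, Pars2, Wars2 and Yars2 below 0. For Pars2 and Wars2 the sign was not recomputed without their highest library. Pars2 fell below the filter without Krt15-negative replicate 3 (6.97 FPKM), and Wars2 without Krt15-negative replicate 2 (6.28 FPKM). The count of genes called was 0 in all settings except library weights (8, all lower) and leaving out Krt15-negative replicate 2 (1, lower); leaving out single libraries or both libraries of a replicate gave 0 to 1. No member was called in any of these settings. Members with a difference above 0 numbered 18 to 28, of 32 to 37 tested, and the share over all genes moved too. The count of 18 of 36 came without Krt15-negative replicate 1 and with library weights, where 51.3% and 56.7% of all genes were above 0. The count of 28 of 36 came with upper-quartile scaling over values above 0, where 76.8% of all genes were. The median over cytosolic and Aimp members, Qars included, stayed above 0 (0.12 to 1.62), as that over all genes did. The lowest came without Krt15-negative replicate 1 (all genes 0.03) and the highest with a pseudocount of 0.1 (all genes 1.2). It lay just under that of all genes without Krt15-positive replicate 2 (0.37 against 0.38) and without both libraries of replicate 3 (1.05 against 1.07). The median over mitochondrial members turned below 0 without Krt15-negative replicate 1 (-0.58) or Krt15-positive replicate 2 (-0.10). It was also below 0 without both libraries of replicate 1 (-0.24) or of replicate 2 (-0.27), with library weights (-0.14) and with quantile normalization (-0.09). The median of all genes ranged with the scaling, from 0.04 with quantile normalization to 0.85 with upper-quartile scaling over values above 0. That scaling, 1 of 2 definitions replaced after their results were seen, gave medians of 1.05 (cytosolic and Aimp) and 0.49 (mitochondrial), against 0.77, 0.36 and 0.48 for all genes as redefined. Median-of-ratios scaling over genes above 0 in all libraries gave 0.69, 0.28 and 0.44 for all genes, against 0.90, 0.42 and 0.71 as redefined. The cause was not tested. With a replicate block the count of genes called was 0 too. Each replicate number holds 1 library of each group, so the block leaves the differences unchanged. The 26 members above 0 and the medians of 0.80 and 0.35 were therefore fixed in advance. The labels give same-numbered libraries of both groups a common ID and do not say what it marks. Same-numbered libraries had deviations from their group means that correlated at 0.13, 0.17 and 0.01. Krt15-positive replicates 1 and 2 correlated best with their own number. Krt15-positive replicate 3 did not, at 0.01 against 0.02 with Krt15-negative replicate 1. Such weak correlations cannot decide whether the libraries are pairs. The libraries were fitted as unpaired, with the replicate block as an alternative.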
